A study of Mus musculus with 3 samples.

Results

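The HoxD cluster of the mouse was described here through its DNA methylation profile. The members were all 200-bp bins of the deposited table on chromosome 2 from 10 kb outside Evx2 to 10 kb outside Hoxd1, chr2:74642989-74775142 in mm10. They numbered 662 of the 12313737 bins measured. The rule uses gene positions and no measured value, but it was set with earlier results of these data known. The span holds 10 protein-coding genes, in the order Evx2, Hoxd13, Hoxd12, Hoxd11, Hoxd10, Hoxd9, Hoxd8, Hoxd4, Hoxd3 and Hoxd1 by their ends on the chromosome. All are transcribed towards higher coordinates except Evx2, which runs the opposite way.

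Hox genes encode homeodomain transcription factors that give cells their position along the body axis, and in mammals they lie in 4 clusters, HoxA to HoxD. Within HoxD the genes follow the order in which they are used: Hoxd1 and its neighbours act early and towards the head, and Hoxd9 to Hoxd13 late and towards the tail, in limbs, the urogenital tract and the hindgut. Unused Hox genes are commonly held silent by Polycomb complexes, on CpG-rich DNA that is usually free of methylation. Regulatory landscapes on both sides, one beyond Evx2 and the other beyond Hoxd1, hold the enhancers of the cluster.

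The 3 libraries came from organoids grown from crypts of the proximal colon of male mice aged about 40 days, which were heterozygous for a Braf allele that Cre switches to V600E (Braf+/LSL). The Braf Base medium library came from organoids in which lentiviral Cre had activated the allele and which were selected to grow in Base medium, without the factors of the stem-cell niche. For the Braf full medium library, organoids with the activated allele were kept in medium with Wnt3a, R-spondin, noggin and EGF. The EV full medium library came from organoids that received the lentiviral backbone without Cre, in the same medium. The culture lasted 5 months in all cases, and the final growth in Base or full medium another 3 weeks. As there was 1 library per group, the differences have no replicate check and were not tested. The table holds methylated DNA and no expression, so neither the tissue label nor recombination at Braf could be checked from it.

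In MBD-seq a methyl-CpG-binding domain pulls down methylated fragments, which are then sequenced, so a value is an amount of methylated DNA and not a methylation level. More cells with a methylated allele and more methylated CpGs per cell cannot be told apart. Each deposited value, taken out of its log2 form, was a floor plus a whole number of equal steps. That number was read as read overlaps, and overlaps times the step are called coverage. Coverage averaged 0.0447 per bin in Base medium, 0.0832 in Braf full medium and 0.0511 in EV. The estimated reads numbered 5985362, 8648828 and 5041726 in the same order. The Braf full medium library carried more scattered reads: 1-kb tiles short of the minimum in all libraries averaged 0.0400 there, against 0.00603 in Base medium and 0.00567 in EV. A window was called gained or lost at a log2 ratio of at least 1 or at most -1, with 0.0597, the mean coverage per bin, added to both libraries, if the higher library reached 0.119, set at 2 times the mean. Log2 ratios include that pseudocount. Folds are plain coverage ratios with 95% Clopper-Pearson intervals, computed from estimated reads and covering counting error only.

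The RefSeq promoter table (GRCm38.p6) held 11 start sites for the 10 genes. Below are the 250 bases before 6 of them, 5′ to 3′ on the gene's strand, with every CpG, the site that the binding domain reads when methylated, in capitals. The first 4 belong to starts that were called gained in at least 1 comparison, and the last 2 to starts that were not.
Hoxd13, chr2:74667975-74668224, + strand, 31 CpGs: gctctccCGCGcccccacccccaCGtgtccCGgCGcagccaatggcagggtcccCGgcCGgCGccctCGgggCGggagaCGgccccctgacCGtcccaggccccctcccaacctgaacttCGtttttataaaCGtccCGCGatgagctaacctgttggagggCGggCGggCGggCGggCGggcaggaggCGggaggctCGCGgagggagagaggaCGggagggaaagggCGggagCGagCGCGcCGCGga
Hoxd11 2nd start, chr2:74682073-74682322, + strand, 20 CpGs: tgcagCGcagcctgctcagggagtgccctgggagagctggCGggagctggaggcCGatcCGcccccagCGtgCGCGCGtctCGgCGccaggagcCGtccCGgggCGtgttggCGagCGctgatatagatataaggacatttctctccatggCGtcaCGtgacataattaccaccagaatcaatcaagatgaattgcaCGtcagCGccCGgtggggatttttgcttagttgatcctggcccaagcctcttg
Hoxd1, chr2:74762730-74762979, + strand, 24 CpGs: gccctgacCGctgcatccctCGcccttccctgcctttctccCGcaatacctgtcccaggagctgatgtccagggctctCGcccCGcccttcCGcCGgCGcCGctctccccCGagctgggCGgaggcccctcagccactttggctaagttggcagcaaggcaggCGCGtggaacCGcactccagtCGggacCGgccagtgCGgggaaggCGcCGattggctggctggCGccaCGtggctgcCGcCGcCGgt
Hoxd8, chr2:74704365-74704614, + strand, 6 CpGs: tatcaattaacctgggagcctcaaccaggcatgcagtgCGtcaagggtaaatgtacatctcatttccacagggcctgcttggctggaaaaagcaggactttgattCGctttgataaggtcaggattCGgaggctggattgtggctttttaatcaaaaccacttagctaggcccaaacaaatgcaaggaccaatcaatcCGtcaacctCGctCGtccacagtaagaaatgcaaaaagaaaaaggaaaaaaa
Hoxd3, chr2:74711743-74711992, + strand, 12 CpGs: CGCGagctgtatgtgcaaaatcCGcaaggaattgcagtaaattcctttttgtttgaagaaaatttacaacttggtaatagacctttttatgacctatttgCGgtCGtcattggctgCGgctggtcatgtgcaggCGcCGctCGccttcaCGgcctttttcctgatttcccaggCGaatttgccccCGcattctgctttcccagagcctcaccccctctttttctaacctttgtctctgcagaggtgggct
Hoxd11 1st start, chr2:74679308-74679557, + strand, 2 CpGs: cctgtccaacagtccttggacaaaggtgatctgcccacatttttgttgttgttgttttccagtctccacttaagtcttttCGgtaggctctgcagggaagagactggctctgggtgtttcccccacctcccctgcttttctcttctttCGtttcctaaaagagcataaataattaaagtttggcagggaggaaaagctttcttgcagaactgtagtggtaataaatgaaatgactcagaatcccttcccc

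The HoxD profile differed between the libraries mainly in where the methylated DNA lay. In the EV library nearly all of it lay inside the Hoxd3 gene model, a stretch of 36279 bp that also holds Hoxd4. In both Braf libraries separate peaks of methylated DNA stood at Evx2, Hoxd13, Hoxd11, Hoxd9, Hoxd8, in Haglr and at Hoxd1. At these places the EV library had fewer reads or none, with its highest coverage, 0.364, over the Evx2 start. Several of the peaks inside Hoxd3 were lower in both Braf libraries than in EV. Mean coverage over the whole span was 0.319 in Base medium, 0.235 in Braf full medium and 0.230 in EV. The Braf full medium span was thus 1.02 times the EV span (95% interval 0.943 to 1.10), and the Base medium span 1.39 times (1.29 to 1.49). The near-equal total of the Braf full medium and EV libraries holds for the deposited scaling: the log2 ratio of the span was 0.02 as deposited, -0.53 with equal totals and 1.02 with an equal median of the tiles covered in each library.

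**Figure D1:**
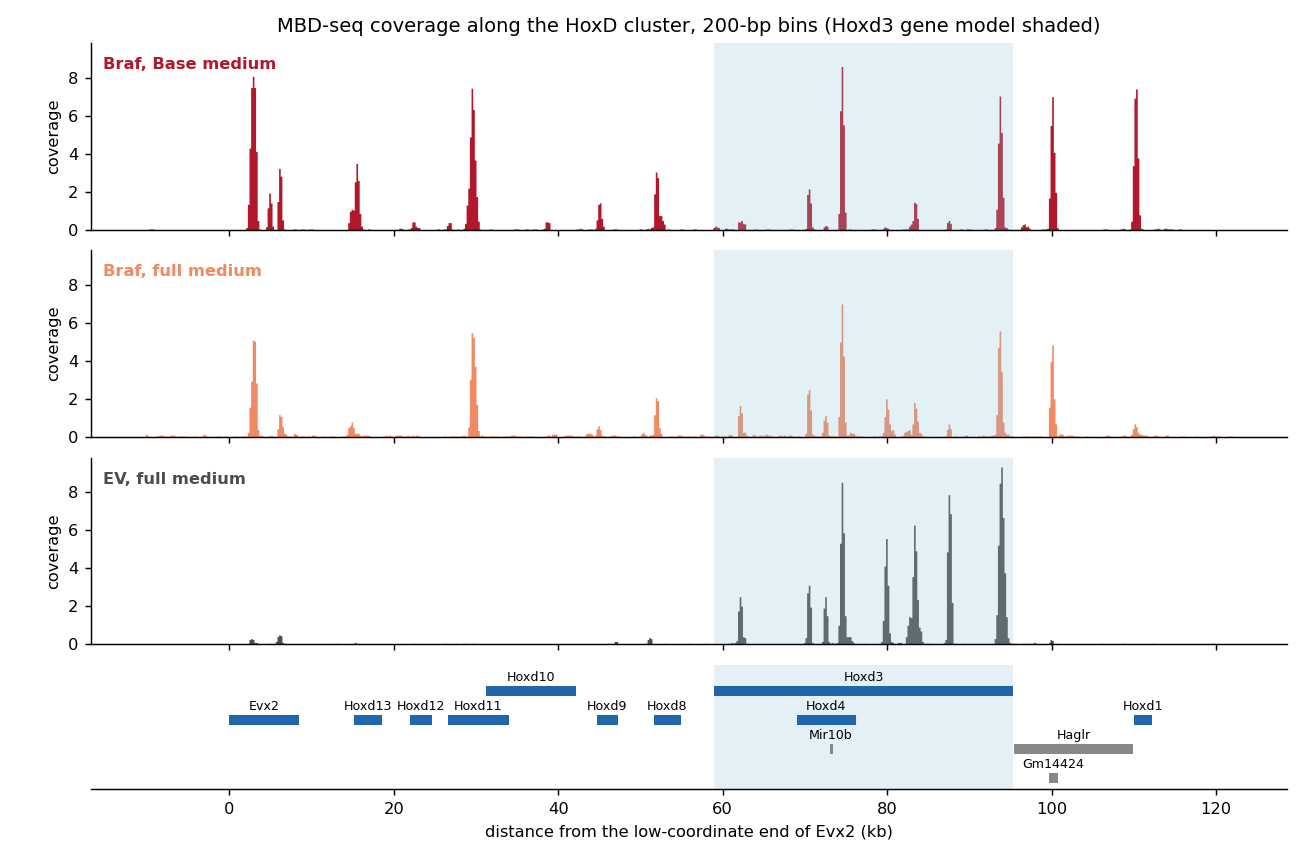
Coverage per 200-bp bin (y axis) against distance from the low-coordinate end of Evx2 in kb (x axis) in the 3 libraries, with the 10 genes in blue and other transcripts in grey. Peaks of the EV library lie almost entirely within the shaded Hoxd3 gene model, whereas both Braf libraries also have peaks from Evx2 to Hoxd8 and from Haglr to Hoxd1.

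The share of the cluster's coverage in each part does not depend on how the libraries were scaled. The boundaries of the Hoxd3 gene model were chosen for this after the profile had been seen. Hoxd3 holds 27.3% of the bins. It carried 27.4% of the HoxD coverage in Base medium (95% interval 25.6 to 29.2), 44.6% in Braf full medium (41.9 to 47.3) and 94.9% in EV (93.5 to 96.1). The side from Evx2 to Hoxd8, with 52.1% of the bins, carried 51.2% in Base medium, 42.7% in Braf full medium and 3.92% in EV. The side of Haglr and Hoxd1, with 20.4% of the bins, carried 21.4%, 12.6% and 1.18%. With each library's background taken off, the Hoxd3 share was 27.4% in Base medium, 48.1% in Braf full medium and 96.6% in EV.

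**Figure D2:**
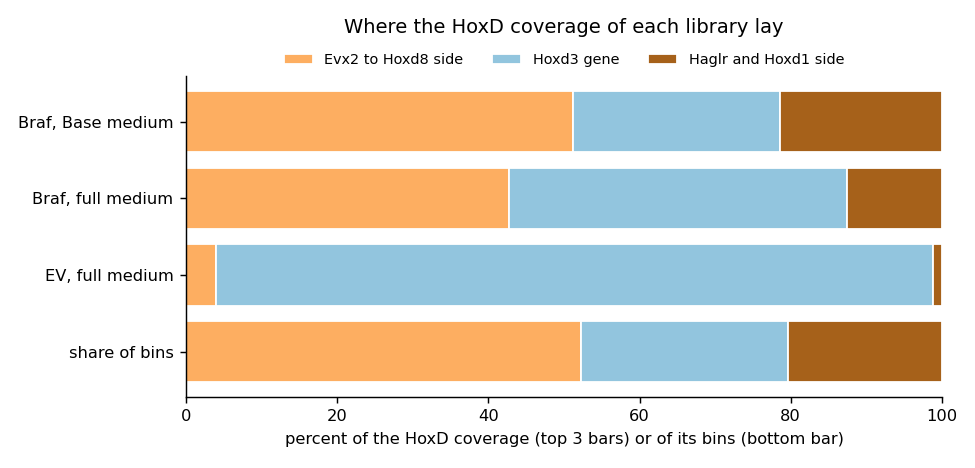
Percent of each library's HoxD coverage (x axis) that lay on the Evx2 to Hoxd8 side, in the Hoxd3 gene and on the Haglr and Hoxd1 side, with the share of the bins in the lowest bar. The Hoxd3 share is 27.4% in Base medium, 44.6% in Braf full medium and 94.9% in EV.

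Counted in 1-kb tiles, of which the span has 132, Base medium against EV had 22 tiles gained and 11 lost. Over all 2462738 tiles, 0.249% were gained and 0.984% lost in this comparison. Braf full medium against EV had 15 gained and 6 lost, where 2.82% and 0.354% of all tiles were. Base medium against Braf full medium had 13 gained and 7 lost, where 0.110% and 3.13% were. Many tiles hold no methylated DNA, so the shares were also taken over tiles in which at least 1 library reached the minimum, 38 in HoxD and 194691 in all. For Braf full medium against EV, 39.5% of these HoxD tiles were gained against 35.6% of all, so the gains in HoxD were near the general share, and 15.8% were lost against 4.48%. For Base medium against EV, 57.9% were gained against 3.15% of all, and 28.9% lost against 12.4%. For Base medium against Braf full medium, 34.2% were gained against 1.39% of all, and 18.4% lost against 39.6%. Of all tiles, 7.14% reached the minimum in Braf full medium, 3.66% in Base medium and 4.53% in EV. Of the HoxD tiles, 22.7%, 22.0% and 13.6% did. A tile that reached it in Braf full medium alone is counted here but cannot be called in Base medium against EV. Against Braf full medium such a tile can only be lost. The 3 comparisons share libraries and are not independent of each other. Position split the directions: with the scaling as deposited, none of the 36 tiles of Hoxd3 was gained in any comparison, and all 11 tiles lost in Base medium against EV lay there. Of the 22 tiles gained, 17 lay on the Evx2 to Hoxd8 side and 5 on the Haglr and Hoxd1 side. This split follows in part from the choice of the zone, which was drawn after the profile had been seen. A tile can be lost against EV only where EV reached the minimum, and Hoxd3 held 94.9% of the EV coverage. Few tiles outside Hoxd3 could therefore be called lost against EV. Scaling the libraries to equal totals shifts log2 ratios by 0.19 for Base medium over EV, -0.70 for Braf full medium over EV and 0.90 for Base over Braf full medium. The Base medium counts against EV were again 22 and 11 under it, but Base against Braf full medium then had 3 tiles gained and 4 lost in Hoxd3. An equal median of the tiles covered in each library, a scaling chosen after seeing the data, gave 9 gained and 2 lost in Hoxd3 for Braf full medium against EV. Shares of all tiles called under these scalings are not given.

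Methylated DNA gathered in short peaks. A run of at least 3 bins in which the highest library reached 0.298, 5 times the mean, was called a covered stretch, with gaps of up to 2 bins joined. There were 18, from 600 to 2000 bp long, and 21.6 kb in all. These stretches were chosen by the measured values, so their coverages are a description. They held 95.2% of the HoxD overlaps in Base medium, 84.1% in Braf full medium and 95.6% in EV. Outside Hoxd3 there were 10 stretches, and coverage was highest in Base medium, lower in Braf full medium and lowest in EV in 10 of 10. Inside Hoxd3 there were 8, and EV was the highest library in 8 of 8. The order EV, Braf full medium, Base medium held in 6 of those 8. These orders are of the coverage as deposited. With equal totals the first held in 9 of 10 stretches and EV was the highest in 7 of 8, and with an equal median of the tiles covered in each library the counts were 6 of 10 and 4 of 8. Under these scalings EV stayed above Base medium in at least 7 of the 8 stretches of Hoxd3.

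**Figure D3:**
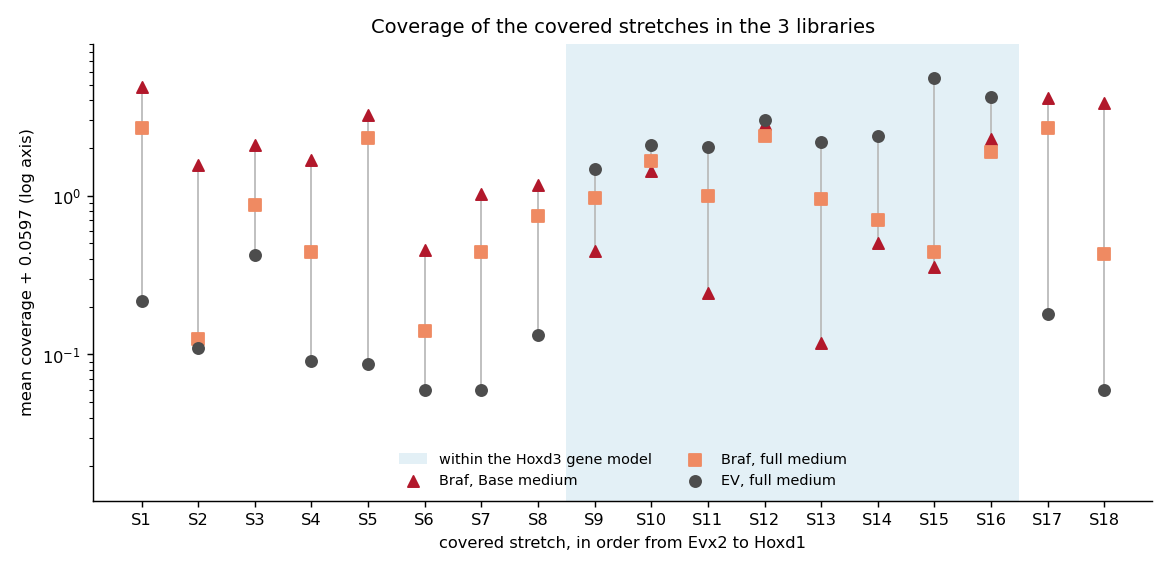
Mean coverage plus 0.0597 on a log axis (y axis) of the 18 covered stretches in order from Evx2 to Hoxd1 (x axis), 1 point a library. With the scaling as deposited, outside the shaded Hoxd3 gene model the Base medium point is the highest in each stretch, and inside it the EV point is.

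At the far end of the cluster lies Evx2, an even-skipped homeobox gene that is regulated together with its Hoxd neighbours. The first stretch lay inside the gene at chr2:74655201-74656600, 2957 bp downstream of its start at 74659557. It had a coverage of 4.75 in Base medium, 2.59 in Braf full medium and 0.158 in EV. Base medium was thus 30.1 times EV (15.6 to 66.9), Braf full medium 16.4 times EV (8.38 to 36.9), and Base 1.84 times Braf full medium (1.51 to 2.23). A second, shorter stretch in the gene at chr2:74657601-74658200 appeared in Base medium, with 1.49 against 0.0653 in Braf full medium and 0.0502 in EV. The third, chr2:74658801-74659600, spans the start and had 2.01 in Base medium, 0.808 in Braf full medium and 0.364 in EV. Outside Hoxd3 it was the stretch with the most coverage in EV. In the window of 1 kb to each side of the Evx2 start, coverage was 0.734 in Base medium, 0.343 in Braf full medium and 0.160 in EV, and Base medium over EV was called gained.

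Hoxd13 is the last gene of the cluster, needed for digits, genitalia and the hindgut. At its start window, coverage was 1.19 in Base medium, 0.303 in Braf full medium and 0.0228 in EV. The window was called gained in all 3 comparisons, and Base medium was 3.94 times Braf full medium (2.61 to 6.13). The stretch over the start, chr2:74667401-74669000, differed in shape between the Braf libraries. Its fullest bin held 94 overlaps in Base medium, centred 276 bp after the start, and 16 in Braf full medium, centred 324 bp before it. Downstream of the start, the tile from 74668001 had 2.10 in Base medium, 0.235 in Braf full medium and 0.0502 in EV. At the high-coordinate end of Hoxd13 coverage was 0 in Base medium, 0.0356 in Braf full medium and 0 in EV, so the difference lay at the start.

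Hoxd12, Hoxd11 and Hoxd10 pattern limbs and the posterior trunk together with Hoxd13. The Hoxd12 start window had 0.131 in Base medium, 0.0668 in Braf full medium and 0.0137 in EV, and passed the minimum of 0.119 narrowly for a gain of Base medium over EV. Hoxd11 has a pair of listed starts 2765 bp apart, and they behaved differently. The 2nd start, at 74682323, had 2.58 in Base medium, 1.85 in Braf full medium and 0.0274 in EV. The 1st start, at 74679558, had 0.101 in Base medium, 0.0267 in Braf full medium and 0.0137 in EV and was not called. Its values fell short of the minimum, though Base medium was 7.38 times EV (1.23 to 185), with 3 overlaps in EV. The stretch at the 2nd start, chr2:74681601-74683400, was 113 times higher in Base medium than in EV (31.1 to 928) and 80.4 times higher in Braf full medium than in EV (22.0 to 663). Between the Braf libraries it differed less, with 3.15 in Base medium and 2.24 in Braf full medium, or 1.40 times (1.16 to 1.70). Its fullest bin, at 74682401, was the same in both, with 201 overlaps in Base medium and 112 in Braf full medium. The Hoxd10 start window, at 74691891, had 0.118 in Base medium, 0.0713 in Braf full medium and 0 in EV, just short of the minimum for a call. The shorter stretch over that start, chr2:74691401-74692000, had 0.395 in Base medium, 0.0817 in Braf full medium and 0 in EV. This stretch was called gained in Base medium against EV and against Braf full medium. The Hoxd10 gene model, 10834 bp long, begins at 74684273, well before that start. Over all of it coverage was 0.0303 in Base medium, 0.0481 in Braf full medium and 0 in EV. The Braf full medium value lies near that library's background of 0.0400.

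Hoxd9, which acts in limb and lumbar patterning, had a start window with 0.384 in Base medium, 0.209 in Braf full medium and no overlap in EV. Base medium was at least 11.3-fold higher than EV and Braf full medium at least 6.15-fold higher, taken against 3 reads in the window. The lower limits of the 95% intervals were 8.81 and 4.54. Hoxd8 is the next gene inwards. Its start window had 0.913 in Base medium, 0.570 in Braf full medium and 0.0867 in EV, and both Braf libraries were called gained over EV. Its peak bin, at 74704801, was the same in both Braf libraries and held 82 overlaps in Base medium and 42 in Braf full medium. In EV the fullest bin of the window lay upstream instead, centred 514 bp before the start, with 7 overlaps.

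Hoxd1, an early gene of the cluster, stood at the opposite edge and set the Base medium library apart from both others. Its start window had 2.08 in Base medium, 0.236 in Braf full medium and 0.00456 in EV, the last being 1 overlap. The stretch over the start, chr2:74762601-74763800, had 3.79 in Base medium, 0.368 in Braf full medium and 0 in EV. Base medium was 10.3 times Braf full medium (6.43 to 17.5) and, taken against 3 reads in EV, at least 60.7-fold higher than EV. Braf full medium was at least 5.89-fold higher than EV on the same footing. The lower limits of the 95% intervals, which also allow for the error of the Braf counts, were 49.0 and 4.33. The fullest bin held 200 overlaps in Base medium, 321 bp after the start, and 14 in Braf full medium, 121 bp after it. Haglr, a long non-coding RNA between Hoxd3 and Hoxd1, held another peak at chr2:74752601-74753600, where the short transcript Gm14424 lies. It had 4.04 in Base medium, 2.62 in Braf full medium and 0.121 in EV, which made Base medium 33.5 times EV (14.0 to 107) and Braf full medium 21.7 times (8.91 to 69.9). The peaks of Haglr and Hoxd1, about 10 kb apart, thus differed unequally between the Braf libraries, by 1.54 times (1.22 to 1.96) and by 10.3 times.

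Over the 11 starts, 7 were called gained in Base medium against EV, where 5.56% of 20085 start windows of protein-coding genes were. Braf full medium against EV had 5 gained, where 6.80% of all were, and Base medium against Braf full medium had 2, Hoxd13 and Hoxd1, where 2.10% were. These shares, and those of end windows below, are over all windows, with or without methylated DNA. Shares over covered windows alone are not given. Over covered tiles, the HoxD gains of Braf full medium against EV were near the general share (39.5% against 35.6%). The number of starts gained depended on the scaling. With equal totals it was 9 for Base medium against EV, 5 for Braf full medium against EV and 8 for Base medium against Braf full medium. Over the scaling, background and pseudocount settings it ranged from 6 to 9, from 3 to 8 and from 1 to 8 in the same order of comparisons. The shares of all starts quoted here are of the main setting only. They cannot be set beside these counts, as a scaling shifts the log2 ratios of all windows, by 0.90 for Base over Braf full medium with equal totals. No start was called lost in any comparison, against 1.42% of all start windows for Base medium against EV. The shares were 0.782% for Braf full medium against EV and 3.58% for Base medium against Braf full medium. A start can be lost against EV only where EV reached the minimum, and among the 11 only Evx2 did, with 0.160. At shares this small few or no losses would be found among 11 starts anyway, so their absence is not informative in any comparison. The median log2 ratio of the 11 was 1.86 for Base medium over EV, 1.13 for Braf full medium over EV and 0.63 for Base over Braf full medium. Over all starts it was 0.00, 0.74 and -0.67. The listed starts of Hoxd3 and Hoxd4, at the low-coordinate ends of their gene models, stayed low in every library. No start further inside these models was listed or measured, and the covered stretches of Hoxd3 and Hoxd4 lay there. Hoxd3 had 0.0505 in Base medium, 0.0401 in Braf full medium and 0.00913 in EV, and Hoxd4 had 0.0101, 0.0356 and 0.00913. In the planned windows at both ends of the 10 gene models, 20 in all, Base medium against EV had 5 gained and 2 lost, where 3.23% and 1.40% of 41330 end windows of protein-coding genes were. Braf full medium against EV had 4 gained and 1 lost (4.64% and 0.602% of all), and Base medium against Braf full medium 2 and 0 (1.03% and 2.94% of all). The ends lost were the high-coordinate ends of Hoxd4 and Hoxd3. Overlaps at the Hoxd3 and Hoxd4 starts numbered at most 15 in a library, which gives little precision.

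**Figure D4:**
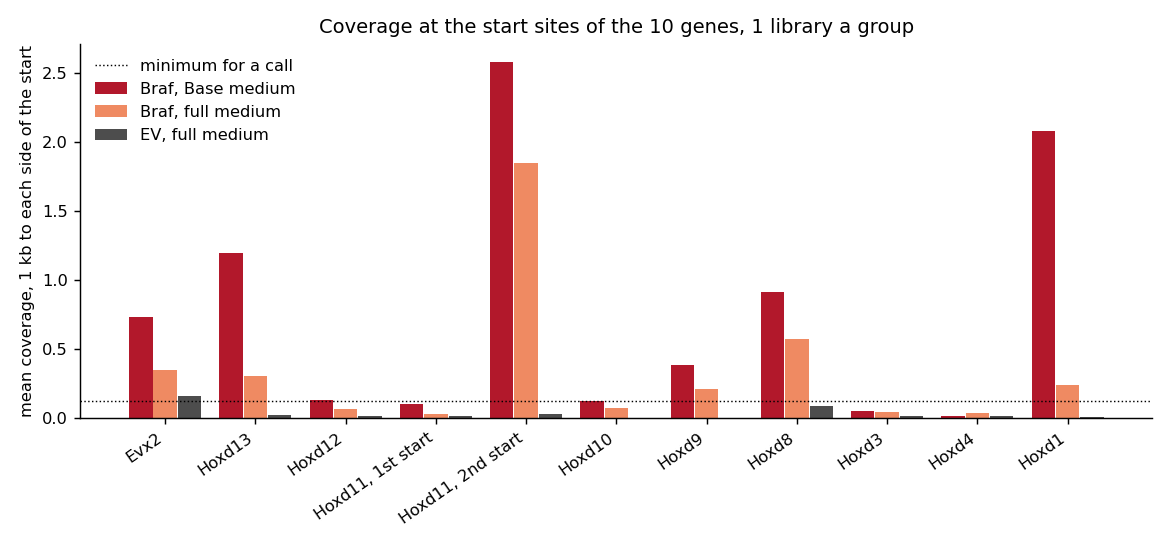
Mean coverage (y axis) in the window 1 kb to each side of each of the 11 start sites (x axis), 1 bar a library, with the minimum of 0.119 for a call as a dotted line. Hoxd11 at its 2nd start, Hoxd1 and Hoxd13 have the highest Base medium bars, and Hoxd3 and Hoxd4 stay under the line in all 3 libraries.

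CpG counts differed widely between these starts. In the 300 bases of the promoter table the members held from 4 to 37 CpGs, with a median of 20, against a median of 14 over all 20085 starts. Hoxd13 held the most, 37, and 7.61% of all starts had as many. Hoxd1 held 29 and the 2nd Hoxd11 start 25. The 1st Hoxd11 start and Hoxd4 held 4 each. Hoxd8, with 6, had 0.913 in Base medium, whereas Hoxd3, with 20, had 0.0505 and Hoxd10, with 22, had 0.118. Most peaks lay inside the genes: the fullest Base medium bin was centred 143 to 456 bp after the start at Evx2, Hoxd13, Hoxd12, Hoxd11, Hoxd9, Hoxd8 and Hoxd1. At Hoxd10 it was centred 390 bp before the start, with 11 overlaps. Neither the printed bases nor the 300 in which CpGs were counted hold the centre of these Base medium peaks. The CpGs at those centres were not counted.

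Inside Hoxd3, a gene that patterns the neck vertebrae, and Hoxd4, a gene of the hindbrain and neck that its model encloses, the 8 stretches carried most of the EV coverage. Averaged over the gene model, coverage was 0.317 in Base medium, 0.380 in Braf full medium and 0.791 in EV, and Base medium against EV was called lost. The stretches did not move together. At chr2:74740201-74741000 coverage was 0.296 in Base medium, 0.380 in Braf full medium and 5.46 in EV. This was 18.4 times lower in Base medium than in EV (10.5 to 35.4) and 14.4 times lower in Braf full medium than in EV (8.16 to 27.7). Between the Braf libraries it was 1.28 times lower in Base medium, with an interval from 0.544 to 3.01.

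Elsewhere in Hoxd3 the Braf libraries differed from each other as well. At chr2:74732401-74733800 coverage was 0.0582 in Base medium, 0.889 in Braf full medium and 2.13 in EV. Base medium was 36.6 times lower than EV (14.5 to 125) and 15.3 times lower than Braf full medium (5.86 to 53.5), and Braf full medium was 2.40 times lower than EV (1.72 to 3.38). At chr2:74725201-74725800, within Hoxd4, coverage was 0.185 in Base medium, 0.931 in Braf full medium and 1.97 in EV. The stretch at chr2:74714801-74715800, shared with the antisense transcript Hoxd3os1, had 0.385 in Base medium, 0.911 in Braf full medium and 1.41 in EV. At these 3 stretches the Braf full medium value lay between the others. At chr2:74735201-74737200 the values were 0.445 in Base medium, 0.647 in Braf full medium and 2.30 in EV.

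In the 3 remaining stretches of the gene Base medium was closer to EV. Towards the high-coordinate end of Hoxd4, chr2:74727001-74728600 had 2.78 in Base medium, 2.32 in Braf full medium and 2.93 in EV. Base medium was 1.05 times lower than EV there (0.867 to 1.28). The fullest bin, at 74727401, was the same in all 3 libraries, with 232, 143 and 170 overlaps. Another, at chr2:74723001-74723800 near the start of Hoxd4, had 1.37 in Base medium, 1.59 in Braf full medium and 2.03 in EV. The stretch with the most coverage over the 3 libraries, chr2:74746001-74747800 at the high-coordinate end of Hoxd3, had 2.21 in Base medium, 1.82 in Braf full medium and 4.13 in EV, and was called lost in Braf full medium against EV. Its tiles differed: the tile from 74746001 had 3.58 in Base medium, 3.01 in Braf full medium and 4.98 in EV, and the next 0.400, 0.274 and 2.47. Mir10b, the microRNA gene between the Hoxd4 stretches at 74726070 to 74726137, had 0 overlaps in Base medium, 1 in Braf full medium and 1 in EV.

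The largest single differences were as local as these peaks. Among called tiles of Base medium against EV, the highest log2 ratio was 6.01 in the tile just after the Hoxd1 start and the next 5.79 at the 2nd Hoxd11 start, followed by Evx2 (4.50), Haglr (4.49) and Hoxd13 (4.29). The lowest were all in Hoxd3, at -4.18, -3.88, -3.52, -2.93 and -2.46. In Braf full medium against EV, Hoxd11 led with 5.35, followed by tiles of Evx2 and of Haglr (3.74), and the lowest was the Hoxd3 tile from 74740001 at -3.58. In Base medium against Braf full medium, Hoxd1 led with 3.22, ahead of an Evx2 tile (2.98) and the Hoxd13 start tile (2.87). A tile between Hoxd10 and Hoxd9 was lost in that comparison, with 0.0148 in Base medium, 0.137 in Braf full medium and 0 in EV, and so passed the minimum in the Braf full medium library alone.

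The rest of the cluster was nearly empty of methylated DNA. The 10 kb outside Evx2 had a coverage of 0.00218 in Base medium, 0.0413 in Braf full medium and 0 in EV, and the 10 kb outside Hoxd1 had 0.0109, 0.0259 and 0.00492. Between Hoxd13 and Hoxd12 it was 0.0206, 0.0653 and 0, and between Hoxd8 and Hoxd3 0.0123, 0.0490 and 0.00956. The Braf full medium values of these intervals lie near that library's background of 0.0400. Taking the background off left 13 tiles gained and 7 lost in Braf full medium against EV, so the split by position was present without it. The share of all tiles called with the background taken off is not given.

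The other Hox clusters were measured over spans set by the same rule. In Base medium against EV, 16.7% of the HoxD tiles were gained and 8.33% lost, against 8.20% and 1.09% of 183 HoxA tiles, 1.55% and 6.19% of 194 HoxB tiles and 4.41% and 0% of 136 HoxC tiles. In Braf full medium against EV the shares were 11.4% and 4.55% in HoxD, 9.29% and 0.546% in HoxA, 3.61% and 2.06% in HoxB and 8.82% and 0% in HoxC. Tiles in which at least 1 library reached the minimum numbered 38 in HoxD, 53 in HoxA, 28 in HoxB and 22 in HoxC. Of these, Base medium against EV had 22, 15, 3 and 6 gained and 11, 2, 12 and 0 lost. Braf full medium against EV had 15, 17, 7 and 12 gained and 6, 1, 4 and 0 lost. On this count the largest share lost in Base medium was in HoxB, and the largest share gained in Braf full medium in HoxC. The largest shares gained in Base medium and lost in Braf full medium stayed in HoxD. With 1 library a group these differences between clusters could not be tested. The 500 kb beyond each edge of the HoxD span, where its landscapes begin, had no tile gained in Base medium against EV, and 6 and 5 of 500 tiles lost on the Evx2 and Hoxd1 sides. Over all tiles 0.249% were gained and 0.984% lost, so the flanks were near the general share. Braf full medium against EV had 13 and 10 flank tiles gained (2.6% and 2.0%), against 2.82% of all, and 2 lost on each side (0.4%), against 0.354%. Background coverage in these flanks had a log2 ratio of Base medium over EV of -0.05 and -0.21, against 0.09 over all tiles. For Braf full medium over EV it was 2.75 and 2.60, against 2.82.

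**Figure D5:**
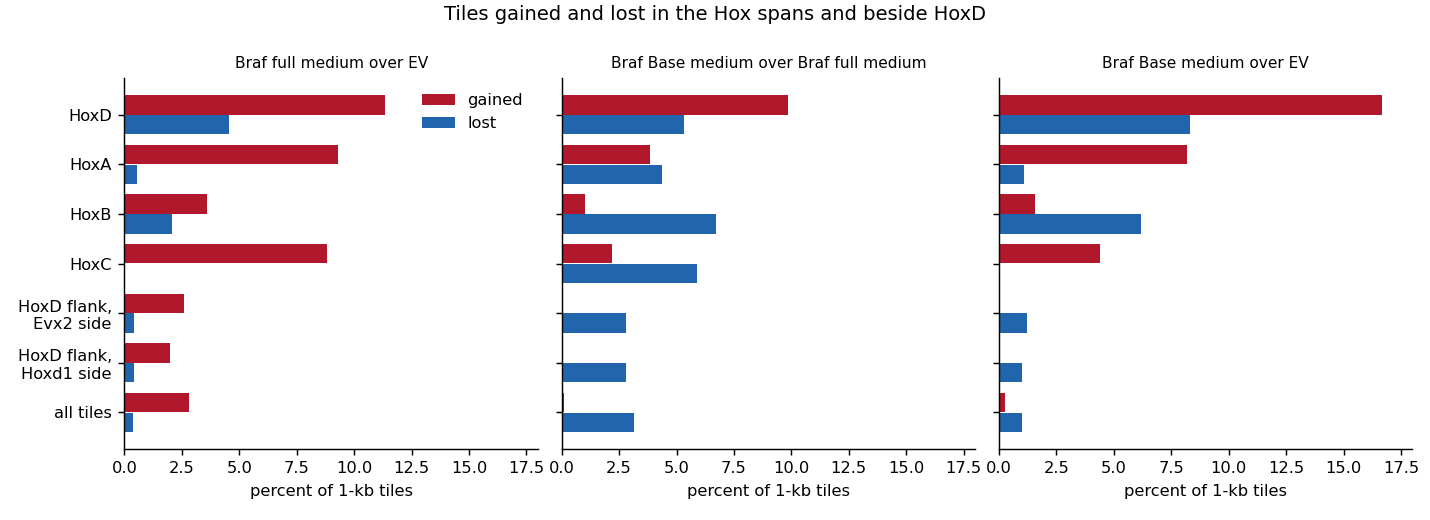
Percent of 1-kb tiles gained (red) and lost (blue) on the x axis, in the 4 Hox spans, the 500 kb on each side of HoxD and all tiles, for the 3 comparisons. In Base medium over EV, HoxD has 16.7% gained and 8.33% lost, and all tiles 0.249% and 0.984%.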

How the data were processed

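Methylated DNA was enriched from 3 organoid libraries with methyl-CpG-binding polypeptides and sequenced as single 50-bp reads, per the labels' protocols. The submitters' processing notes name Bowtie2 and the build mm10. The making of values per bin is not stated there or in the labels. The authors deposited log2 values, 1 for each of 12313737 bins (200 bp, autosomes) and library.

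Every value, taken out of log2, was within 0.001 of a step of a floor of 0.0153 plus whole steps (0.0370 in Base medium, 0.0490 in Braf full medium, 0.0502 in EV). Overlaps were divided by the mean bins that a lone read covered (2.48, 2.42 and 2.49) to estimate reads. Tiles were runs of 5 bins starting at multiples of 1 kb, and a tile belonged to a span if its centre did. Start sites, gene ends and names came from RefSeq tables on GRCm38.p6, whose chromosome coordinates mm10 shares; all 10 genes matched.

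The members, windows and lists were chosen with earlier results of these data known. The text names all 10 genes, the covered stretches with the most coverage, the 5 largest called gains and losses per comparison, and landmarks; the planned limit of 12 stretches was exceeded where a gene's description needed another, chosen after its values were seen. Start-site windows were added to the planned gene-end windows because the promoter table gives the strand. Calls were tested on simulated tiles. Python 3.11.15, numpy 2.4.6, pandas 2.3.3 and scipy 1.17.1 were used.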

Additional observations from a re-analysis of the deposited data

How the results depend on the processing

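The split by position, gains outside Hoxd3 and losses inside it, was the same for Base medium over EV under every scaling, background, pseudocount and minimum tried, with 22 tiles gained and 11 lost in each scaling. The Hoxd3 zone was drawn after the profile had been seen, and little EV coverage lay outside it that could be lost. Shares of all tiles called under the other settings are not given, so the counts below describe HoxD alone. Counts that involve the Braf full medium library moved most, and the cause was not tested. With equal totals, Base over Braf full medium had 23 tiles gained and 4 lost, and Braf full medium over EV 11 lost. Under this scaling the log2 ratio of the span's mean coverage was 1.09 for Base over Braf full medium. For Base over EV it was 0.56, and for Braf full medium over EV -0.53. As deposited these ratios were 0.36, 0.38 and 0.02. With background subtracted the ratio was 0.55 for Base over Braf full medium and -0.16 for Braf full medium over EV. A pseudocount 4 times as large gave 6 gained and 3 lost for Base over Braf full medium. The log2 ratio of the span's mean coverage was then 0.24, and 0.25 for Base over EV. A minimum of 5 times the mean gave 4 lost for Base over Braf full medium. Tiles of 400 bp gave 21 gained and 22 lost for Base over Braf full medium, 40 and 23 for Base over EV and 35 and 16 for Braf full medium over EV, with smaller tiles counted.

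Both median scalings were chosen after seeing the data. An equal median of tiles covered in a library gave 3 gained and 43 lost for Base over Braf full medium. For Braf full medium over EV it gave 46 and 2. The log2 ratio of the span's mean coverage was -0.74 and 1.02 in the same order, and 0.28 for Base over EV. This scaling also turned the log2 ratio of Braf full medium over EV at chr2:74725201-74725800 from -1.04 to 0.085. The shift it applied to Braf full medium over EV was 1.17, and 7.14% of tiles reached the minimum in that library against 4.53% in EV. An equal median of 51974 tiles covered in all 3 was also used. The log2 ratio of the span's mean coverage was then 0.63 for Base over EV and 0.17 for Braf full medium over EV. No paired analysis was possible because each group holds 1 library. Windows with few overlaps, such as the starts of Hoxd3, Hoxd4 and Hoxd12, allow wide ratios at this depth.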

Other observations

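Other transcripts of the span were measured over their gene models. Gm38462, a long non-coding RNA over Hoxd8, had a coverage of 0.237 in Base medium, 0.180 in Braf full medium and 0.0284 in EV. Hoxd3os1, which overlaps the low-coordinate end of Hoxd3, had 0.0896 in Base medium, 0.193 in Braf full medium and 0.249 in EV. Gm31790, between Evx2 and Hoxd13, had 0.00794, 0.0298 and 0.00538.

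Peaks often kept their place between libraries. Of 14 stretches with at least 10 overlaps in the fullest bin of both Braf libraries, 10 had the same fullest bin in both. Of 7 stretches with at least 10 in all 3 libraries, 5 had the same fullest bin in all.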
